A study of Solanum virginianum with 24 samples.

Results

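The 7 genes described here belong to the light reactions of photosynthesis and were picked out by their gene symbols in the platform annotation, a choice made with earlier results of these data known: PSBO, PSBP and PsbQ of the oxygen-evolving complex, CAB4, CAB5 and CAB6A of the chlorophyll a/b-binding proteins, and PETE, plastocyanin. Each symbol belonged to 1 probe set, and the set is 7 of the 802 genes that carry a symbol and 7 of the 10209 probe sets measured. They were followed in fruit of eggplant cultivar PPL, from glasshouse plants whose flowers were pollinated by hand. Fruit was taken at anthesis, written as 0 dpa (days post anthesis), and at 5, 10, 20 and 50 dpa. Each stage had 3 arrays that the labels call biological replicates. No treatment, mutation or transgene is named in the labels, and they name no number of plants or fruits behind an array. The species is Solanum melongena in the series title and Solanum virginianum in the sample records. The array carries tomato probes, so a value is the signal of eggplant RNA on tomato sequence, and a gene symbol is the tomato symbol.

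In the thylakoid membrane of chloroplasts, chlorophyll a/b-binding proteins collect light and pass its energy to photosystem II and photosystem I. Photosystem II splits water at a manganese cluster that the extrinsic proteins PsbO, PsbP and PsbQ shield and stabilise, and plastocyanin later carries the electrons from the cytochrome b6f complex to photosystem I. Genes for these proteins lie in the nucleus and are known to follow light and chloroplast development. Young fruits of the nightshade family are commonly green and hold chloroplasts, which become other kinds of plastid or are lost as the fruit ripens.

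Every value below is a log2 value taken relative to the mean of the 3 arrays of 0 dpa that the authors normalized together with that stage, so 0 is the level at anthesis and 1 is a doubling, a 2-fold change. The same 3 arrays of 0 dpa served all 4 stages, and the 4 comparisons with 0 dpa therefore share them. Each probe set has a median of 0 over the 6 columns of a set, so the values carry no signal level. Which gene was the most abundant cannot be said, and a difference in change between genes is a difference between probe sets whose match to eggplant RNA was not measured. In the 4 sets the 0 dpa values of the 7 genes lay between -0.40 and 0.30, with standard deviations of 0.0202 to 0.356. Over all 10038 probe sets tested the median change was between -0.0253 and 0.0504 in the 8 comparisons made. In whole fruit, fewer cells of a type and less RNA per cell cannot be told apart.

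Transcripts of the oxygen-evolving complex stood far above their level at anthesis at each later stage, with the highest values at 10 dpa and the lowest at 50 dpa. PSBP, whose protein helps hold calcium and chloride at the water-splitting site, read 3.37, 3.42 and 3.43 on the arrays of 5 dpa in the order of the replicate numbers. It read 4.14, 4.08 and 4.19 at 10 dpa, then 3.70, 3.73 and 3.79 at 20 dpa, and 2.41, 2.44 and 2.42 at 50 dpa. All 12 arrays lay above every 0 dpa array of their sets, and no array of 1 stage overlapped those of another. At 5, 10, 20 and 50 dpa, 22.4%, 21.2%, 22.8% and 26.5% of all probe sets lay wholly above their 0 dpa arrays. Between consecutive stages 18.7% lay wholly higher from 5 to 10 dpa, 24.8% lower from 10 to 20 dpa and 20.2% lower from 20 to 50 dpa. From 10 to 50 dpa 25.4% lay wholly lower. These shares stand beside such statements on the genes below as well. How many probe sets separate 5 from 20 dpa, 5 from 50 dpa, or all later stages at once was not counted. The rise of PSBP against 0 dpa was 10.6-fold at 5 dpa, 17.6-fold at 10 dpa (log2 4.14 ± 0.0803 SE, adjusted p = 5.76e-09 in limma), 13.4-fold at 20 dpa and 5.36-fold at 50 dpa (log2 2.42 ± 0.0738, adjusted p = 1.91e-07). Ordered by fold change from the highest, PSBP was at place 7 of the 10038 probe sets at 5 dpa, 12 at 10 dpa, 22 at 20 dpa and 58 at 50 dpa.

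PsbQ, another extrinsic subunit, had a steeper course around 10 dpa. Its arrays read 2.45, 2.58 and 2.63 at 5 dpa and 3.71, 3.76 and 3.85 at 10 dpa. They read 2.58, 2.66 and 2.63 at 20 dpa and 2.19, 2.15 and 2.20 at 50 dpa. The arrays of 5 and 20 dpa overlapped, while those of 10 dpa stood above and those of 50 dpa below them. PsbQ rose 13.7-fold by 10 dpa (log2 3.77 ± 0.124, adjusted p = 1.05e-07) and was 4.53-fold above 0 dpa at 50 dpa (log2 2.18 ± 0.0922, adjusted p = 8.95e-07).

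PSBO, the subunit that stabilises the manganese cluster, had arrays at 1.69, 1.89 and 1.88 at 5 dpa, and at 2.99, 2.91 and 3.09 at 10 dpa. At 20 dpa they were at 2.46, 2.51 and 2.53 and at 50 dpa at 1.43, 1.43 and 1.23. The 4 stages did not overlap, and all 12 arrays lay above the 0 dpa arrays. PSBO rose 7.99-fold by 10 dpa (log2 3.00 ± 0.111, adjusted p = 2e-07) and stood 2.57-fold above 0 dpa at 50 dpa (log2 1.36 ± 0.0869, adjusted p = 8.47e-06).

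**Figure D1:**
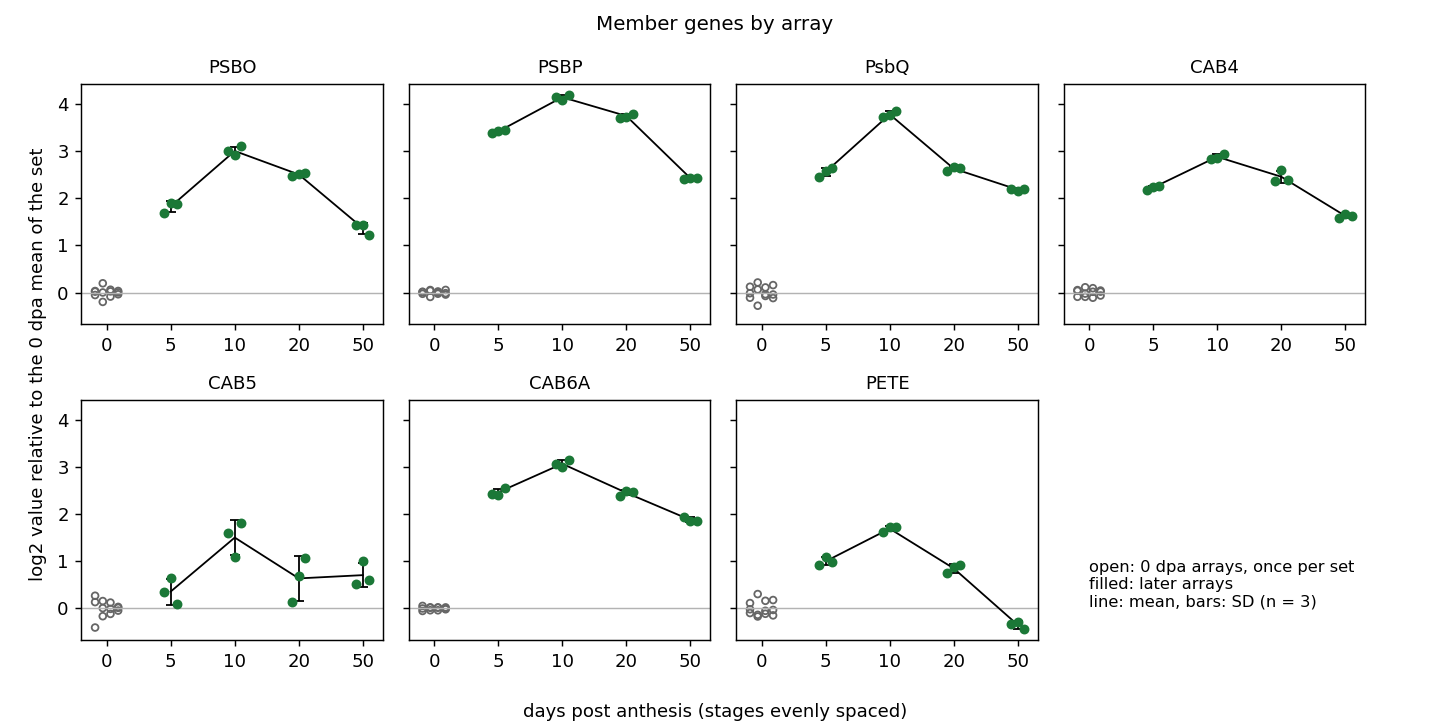
Log2 value of the 7 genes relative to the 0 dpa mean of the same set (vertical axis) against days post anthesis (horizontal axis, stages evenly spaced). Open points are the 3 arrays of 0 dpa, shown once for each of the 4 sets, filled points are the 3 arrays of each later stage, the line joins the stage means and bars are SD. All 7 genes have their highest mean at 10 dpa, from 1.50 for CAB5 to 4.14 for PSBP, and PETE alone has a mean below 0 at 50 dpa, at -0.35.

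The antenna genes were divided. In tomato CAB4 and CAB5 encode light-harvesting proteins of photosystem II of the same type, and CAB6A encodes a light-harvesting protein of photosystem I. CAB4 and CAB6A stood several-fold above 0 dpa at all 4 stages with tight replicates, whereas CAB5 changed less and its replicates were further apart. Over the 4 later stages the standard deviation of CAB5 was 0.257 to 0.472, against 0.0119 to 0.129 for the other 6 genes.

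CAB4 read 2.17, 2.24 and 2.25 at 5 dpa and 2.84, 2.85 and 2.94 at 10 dpa. The values were 2.37, 2.60 and 2.38 at 20 dpa and 1.58, 1.67 and 1.62 at 50 dpa. No stage overlapped another. CAB4 was 7.34-fold above 0 dpa at 10 dpa (log2 2.88 ± 0.0843, adjusted p = 5.5e-08) and 3.08-fold at 50 dpa (log2 1.62 ± 0.0763, adjusted p = 1.56e-06).

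CAB6A read 2.43, 2.40 and 2.54 at 5 dpa and 3.06, 2.99 and 3.14 at 10 dpa. The values were 2.39, 2.48 and 2.47 at 20 dpa and 1.93, 1.84 and 1.85 at 50 dpa. As with PsbQ, the arrays of 5 and 20 dpa overlapped, and those of 10 and 50 dpa lay above and below them. CAB6A was 8.36-fold above 0 dpa at 10 dpa (log2 3.06 ± 0.0772, adjusted p = 2.08e-08) and 3.67-fold at 50 dpa (log2 1.87 ± 0.0743, adjusted p = 6.07e-07).

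CAB5 read 0.35, 0.64 and 0.084 at 5 dpa and 1.59, 1.09 and 1.82 at 10 dpa. The values were 0.14, 0.70 and 1.08 at 20 dpa and 0.52, 1.00 and 0.59 at 50 dpa. Arrays of 5 dpa overlapped those of 0 dpa, 20 dpa and 50 dpa, and the arrays of 10 dpa lay above those of each other later stage. The change against 0 dpa did not pass the threshold of 0.05 at 5 dpa (log2 0.36 ± 0.195, 95% interval -0.0887 to 0.804, adjusted p = 0.199). CAB5 rose 2.83-fold by 10 dpa (log2 1.50 ± 0.173, adjusted p = 0.000201) and was 1.63-fold above 0 dpa at 50 dpa (log2 0.71 ± 0.127, adjusted p = 0.00271). The call at 20 dpa (log2 0.64 ± 0.206, adjusted p = 0.0391) was close to the threshold. It ended when any single array of 0 dpa was left out (replicate 1, 2 and 3 in turn: adjusted p = 0.0927, 0.112 and 0.07), without replicate 2 or 3 of 20 dpa (0.0991 and 0.0891), and in the methods' t-test (adjusted p = 0.18; range over all alternatives 0.00178 to 0.18). The log2 fold change of CAB5 was 0.58 to 0.70 without 1 of the 0 dpa arrays, 0.61 without 20 dpa replicate 2, 0.42 without 20 dpa replicate 3 and 0.89 without 20 dpa replicate 1.

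PETE was the member that went from above to below its level at anthesis. Its arrays read 0.93, 1.09 and 0.97 at 5 dpa and 1.62, 1.72 and 1.73 at 10 dpa. They read 0.75, 0.87 and 0.92 at 20 dpa and -0.33, -0.29 and -0.44 at 50 dpa. The 3 arrays of 50 dpa lay below the 3 arrays of 0 dpa of their set, which reached down to -0.15, and the arrays of the earlier stages lay above their 0 dpa arrays. Of all probe sets, 24.5% lay wholly below their 0 dpa arrays at 50 dpa. The rise of PETE was 2.00-fold at 5 dpa (log2 1.00 ± 0.092, adjusted p = 0.000138), 3.23-fold at 10 dpa (log2 1.69 ± 0.127, adjusted p = 1.57e-05) and 1.8-fold at 20 dpa (log2 0.85 ± 0.0973, adjusted p = 0.00023). At 50 dpa PETE was 1.27-fold lower than at 0 dpa (log2 -0.35 ± 0.102, adjusted p = 0.0264). That last call ended when replicate 1 or 3 of 0 dpa (adjusted p = 0.0584 and 0.0718) or replicate 1 or 3 of 50 dpa (0.0532 and 0.0811) was left out. It also ended in the methods' t-test (adjusted p = 0.0777) and in limma with the replicate number as a block (adjusted p = 0.055). The range over all alternatives was 0.00499 to 0.0811. The log2 fold change of PETE stayed between -0.42 and -0.26 when single arrays were left out.

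Counted together, 6 of the 7 genes were called higher at 5 dpa (CAB5 was not), where 15.7% of all probe sets tested were called higher and 16.4% lower. All 7 were called higher at 10 dpa, against 16% of all probe sets called higher and 19.5% lower. All 7 were called higher at 20 dpa, against 17.9% higher and 20.2% lower. At 50 dpa 6 were called higher, against 20.6%, and PETE was called lower, against 19.6%. The median log2 fold change of the 7 genes was 2.22, 3.00, 2.45 and 1.62 at 5, 10, 20 and 50 dpa, beside medians over all probe sets of -0.0085, -0.0253, -0.0221 and 0.0205.

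Control probe sets meant to follow RNA quality and labelling differed between the arrays compared, and RNA quality itself was not measured here. Relative to 0 dpa, the 5' minus 3' difference of the actin control probe sets was up by 1.09 ± 0.0608 at 5 dpa, 0.37 ± 0.172 at 10 dpa, 0.52 ± 0.108 at 20 dpa and 0.39 ± 0.0987 at 50 dpa (SE). For GAPDH the same shifts were 0.77 ± 0.0904, 0.69 ± 0.13, 0.95 ± 0.116 and 0.32 ± 0.102. The median shift of 36 probe sets for labelling spikes was 0.981 at 5 dpa and -0.277, -0.168 and -0.289 at the later stages. The part of these differences in the results was not tested.

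Between consecutive stages the members moved together up to 20 dpa. From 5 to 10 dpa all 7 were called higher, against 10.3% of all probe sets called higher and 12.2% called lower. The rises of the 7 genes were 0.61 to 1.22 on the log2 scale with a median of 0.73. PsbQ (1.22 ± 0.0766, adjusted p = 5.62e-07) and PSBO (1.18 ± 0.0902, adjusted p = 2.74e-06) had the largest steps, and CAB6A (0.61 ± 0.0765, adjusted p = 0.000127) and CAB4 (0.65 ± 0.0817, adjusted p = 0.000116) the smallest. The step of CAB5 (1.14 ± 0.239, adjusted p = 0.00424) did not pass in the methods' t-test (adjusted p = 0.0769; range over all alternatives 0.00228 to 0.0769).

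From 10 to 20 dpa all 7 were called lower, against 17.4% of all probe sets called lower and 17.1% called higher. The median of the 7 genes was -0.61. The fall of PsbQ was 2.22-fold (log2 -1.15 ± 0.0766, adjusted p = 1.52e-07) and that of PSBP 1.32-fold (log2 -0.40 ± 0.0698, adjusted p = 0.000658). The fall of CAB5 (-0.86 ± 0.239, adjusted p = 0.0131) ended without 10 dpa replicate 3 or 20 dpa replicate 1 (adjusted p = 0.0634 and 0.0611) and in the methods' t-test (0.154; range over all alternatives 0.00458 to 0.154).

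From 20 to 50 dpa 6 of 7 were called lower, against 15.5% of all probe sets called lower and 19.4% called higher. The median of the 7 genes was -0.83. PSBP fell 2.49-fold (log2 -1.32 ± 0.0698, adjusted p = 7.78e-09), PETE 2.29-fold (log2 -1.20 ± 0.0821, adjusted p = 1.07e-07) and PSBO 2.2-fold (log2 -1.14 ± 0.0902, adjusted p = 4.61e-07). PsbQ fell 1.36-fold (log2 -0.45 ± 0.0766, adjusted p = 0.000519), a call that ended relative to the same-numbered 0 dpa column (adjusted p = 0.0512; range over all alternatives 0.000258 to 0.0512). CAB5 did not pass (0.07 ± 0.239, 95% interval -0.448 to 0.586, adjusted p = 0.857), and its value turned negative without 20 dpa replicate 1 or 50 dpa replicate 2.

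Over the whole way from 10 to 50 dpa all 7 were called lower, against 21.4% of all probe sets called lower and 25.8% called higher. The deepest fall was that of PETE (4.11-fold, log2 -2.04 ± 0.0821, adjusted p = 2.48e-10) and the smallest that of CAB5 (1.74-fold, log2 -0.80 ± 0.239, adjusted p = 0.0145). The fall of CAB5 did not pass without 10 dpa replicate 3 or 50 dpa replicate 1 (adjusted p = 0.0698 and 0.0535) or in the methods' t-test (0.0831; range over all alternatives 0.00548 to 0.0831). These comparisons set stages side by side that were normalized separately, with the shared 0 dpa arrays as their only common base, and the error of that base is not in the standard errors.

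**Figure D2:**
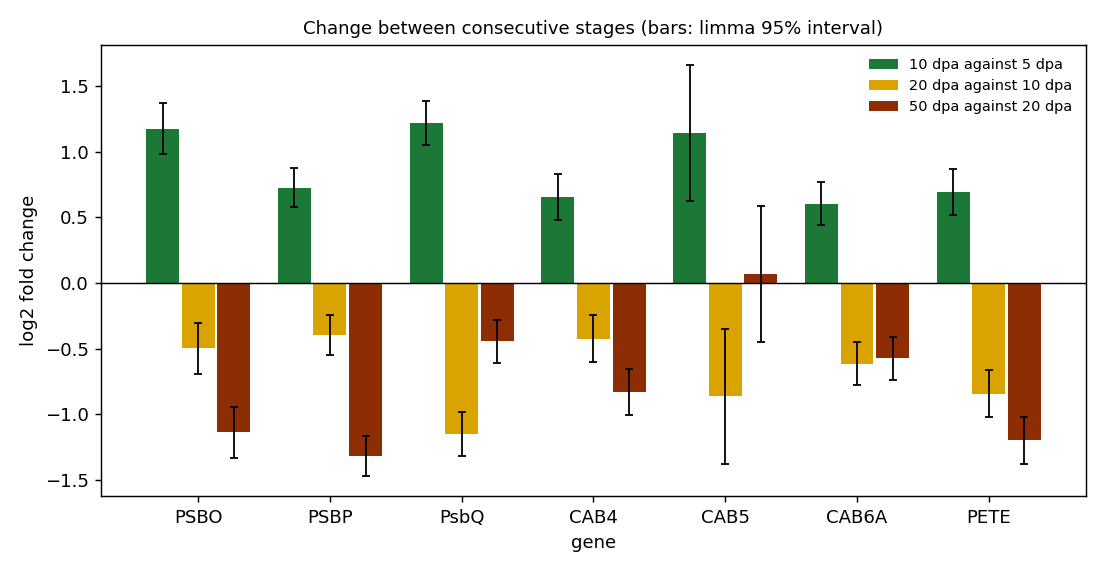
Log2 fold change of each gene (vertical axis) between consecutive stages, with 1 bar per step and the 95% interval of limma as a line. All bars from 5 to 10 dpa are above 0 and all from 10 to 20 dpa below it, and from 20 to 50 dpa CAB5 alone has an interval that spans 0.

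Within the oxygen-evolving complex the share of the fall made by 20 dpa varied. Of the log2 fall from 10 to 50 dpa, PsbQ had made 72.1% by 20 dpa, PSBP 23.2% and PSBO 30.5%. For CAB4, CAB6A and PETE the shares by 20 dpa were 33.8%, 51.6% and 41.3%. For CAB5, whose mean was lower at 20 than at 50 dpa, it was 109%. Taken within each array, PsbQ minus PSBP in change since 0 dpa was -0.92 to -0.81 at 5 dpa, -0.43 to -0.32 at 10 dpa, -1.16 to -1.07 at 20 dpa and -0.29 to -0.22 at 50 dpa. The 4 stages did not overlap in this difference. How often stages separate in the difference of other pairs of probe sets was not counted, for this pair or those below. The means at 10 and 50 dpa, -0.36 and -0.24, differ by less than the SD of PsbQ over the 0 dpa arrays of the 10 dpa set (0.252). The pair was picked after its values were seen, so the difference is given as a description with no test.

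Within arrays the 2 related antenna genes kept apart as well. CAB4 minus CAB5 in change since 0 dpa was 1.60 to 2.17 at 5 dpa, 1.13 to 1.75 at 10 dpa, 1.31 to 2.23 at 20 dpa and 0.67 to 1.05 at 50 dpa, above 0 on all 12 arrays. The 50 dpa arrays lay below those of the earlier stages. CAB6A minus PETE was 1.28 to 1.64 over the arrays of 5, 10 and 20 dpa and 2.13 to 2.28 at 50 dpa. Genes of the CAB family are alike in sequence, so a CAB probe set may also register other members, and how well eggplant RNA matches each tomato probe set was not measured. These differences were likewise chosen after the values were seen.

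**Figure D3:**
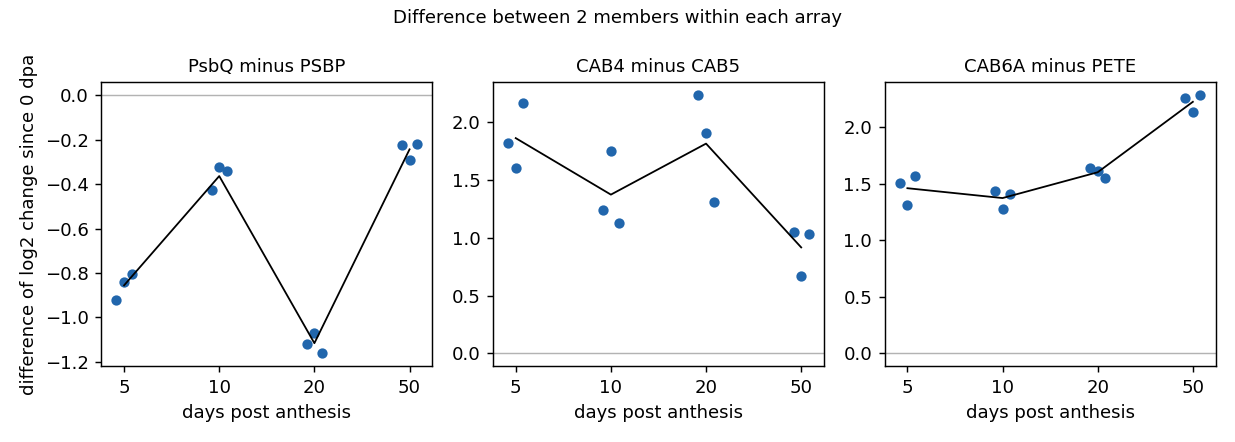
Difference between 2 genes in log2 change since 0 dpa (vertical axis), taken within each array, against days post anthesis, with 1 point per array and a line through the stage means. PsbQ minus PSBP is lowest at 20 dpa, with a mean of -1.12, and CAB6A minus PETE is highest at 50 dpa, with a mean of 2.22.

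The order of the changes was led by PSBP and then PsbQ at all 4 stages. PSBP overlapped with no other member at any stage, and PsbQ overlapped with CAB6A at 5 dpa and with CAB4 at 20 dpa. At 10 dpa CAB6A, PSBO and CAB4 followed with neighbours that overlapped, and so did PSBO, CAB4 and CAB6A at 20 dpa. CAB5 and PETE took the last places, with overlapping arrays at 10 and 20 dpa. Across the 12 later arrays, the 15 pairs without CAB5 had Pearson correlations of 0.833 to 0.982, and the 6 pairs with CAB5 of 0.442 to 0.72. The points share the arrays, the normalization and the 0 dpa base, and most of the spread lies between the stages. With stage means taken off, all 21 pairs had a correlation above 0, from 0.133 to 0.733.

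Other genes of photosynthesis carrying a symbol were few. Of 58 further symbols of antenna and photosystem genes looked for, 1 was measured: PSBR, a small photosystem II protein. PSBR rose by 1.51 ± 0.0798 at 10 dpa (adjusted p = 1.72e-06) and was called higher at all 4 stages. Its later changes, -0.01 from 10 to 20 dpa (adjusted p = 0.906) and -0.16 ± 0.0701 from 20 to 50 dpa (adjusted p = 0.106), did not pass the threshold. A test of PSBR against the members was not run.

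Both chlorophyll synthesis genes measured, of 25 symbols, were called higher at all 4 stages and lower from 10 to 20 and from 20 to 50 dpa. Over all probe sets 15.7% to 20.6% were called higher at the 4 stages. From 10 to 20 dpa 17.4% were called lower, and from 20 to 50 dpa 15.5%. POR2, which makes chlorophyllide in the light, rose by 2.24 ± 0.084 at 10 dpa (adjusted p = 2.22e-07) and was at 1.29 at 50 dpa. GSA-AT, an enzyme of the first steps towards chlorophyll and haem, rose by 1.62 ± 0.13 at 10 dpa (adjusted p = 2.24e-05) and was at 0.54 at 50 dpa.

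Of 29 symbols of carbon fixation and photorespiration, 3 were measured, with 1 higher and 1 lower at 10 dpa and a median of 0.088. Over all probe sets 16% were called higher and 19.5% lower at 10 dpa, with a median of -0.0253. GS2, the plastid glutamine synthetase that takes up ammonium from photorespiration, rose by 1.98 ± 0.105 at 10 dpa (adjusted p = 1.72e-06). At 50 dpa GS2 was lower than at 0 dpa (-1.83 ± 0.0823, adjusted p = 1.2e-06), as was PETE. The symbol ca2 had 4 probe sets that differed. The one that varied most was at -0.96 ± 0.165 at 10 dpa (adjusted p = 0.00206) and the others between -0.033 and 0.047 there, none of them past the threshold. GLDH did not pass at any of the 4 stages, and its symbol is shared by enzymes of other pathways. Its value at 10 dpa is the median of 0.088 given for the 3 genes.

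Of 23 symbols of plastid isoprenoid and xanthophyll genes, 10 were measured. At 10 dpa 3 of these were called higher and 3 lower, with a median of -0.0302. The shares of all probe sets called at that stage, 16% higher and 19.5% lower, stand beside this and the next counts of genes. DXS, which opens the plastid isoprenoid pathway, rose by 1.72 ± 0.0758 (adjusted p = 5.8e-07) and CRTL-E-1, lycopene epsilon-cyclase on the way to lutein, by 2.15 ± 0.11 (adjusted p = 1.4e-06). From 20 to 50 dpa DXS fell by 1.38 (-1.38 ± 0.0887, adjusted p = 5.71e-08) and CRTL-E-1 by 0.99 (-0.99 ± 0.159, adjusted p = 0.000297). Among the 10 genes 2 falls and 4 rises were called over that step, against 15.5% and 19.4% of all probe sets. The 4 rises were those of CrtR-b1 (1.74 ± 0.069, adjusted p = 4.73e-10), ZEP (1.03), PSY2 (0.79) and PDS (0.54). Against 0 dpa CrtR-b1 was at 2.50 ± 0.102 at 50 dpa (adjusted p = 7.36e-07). Of 9 light signalling genes, 1 was called higher and 3 lower at 10 dpa, with a median of -0.147. PHYA, a phytochrome gene, was at -0.42 ± 0.0895 (adjusted p = 0.00612) and CRY1A, a cryptochrome gene, at -0.44 ± 0.0713 (adjusted p = 0.00139), although a further CRY1A probe set did not pass (-0.15, adjusted p = 0.205) and was higher at 5 dpa (0.35, adjusted p = 0.048). Of 7 plastid maintenance and protection genes, 3 were called higher and 1 lower at 10 dpa, with a median of 0.18. Among them were PDF1B, a peptide deformylase gene, at -1.55 ± 0.133 (adjusted p = 3.44e-05) and SODCP.2, a superoxide dismutase gene, at 0.84 ± 0.184 (adjusted p = 0.00701).

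**Figure D4:**
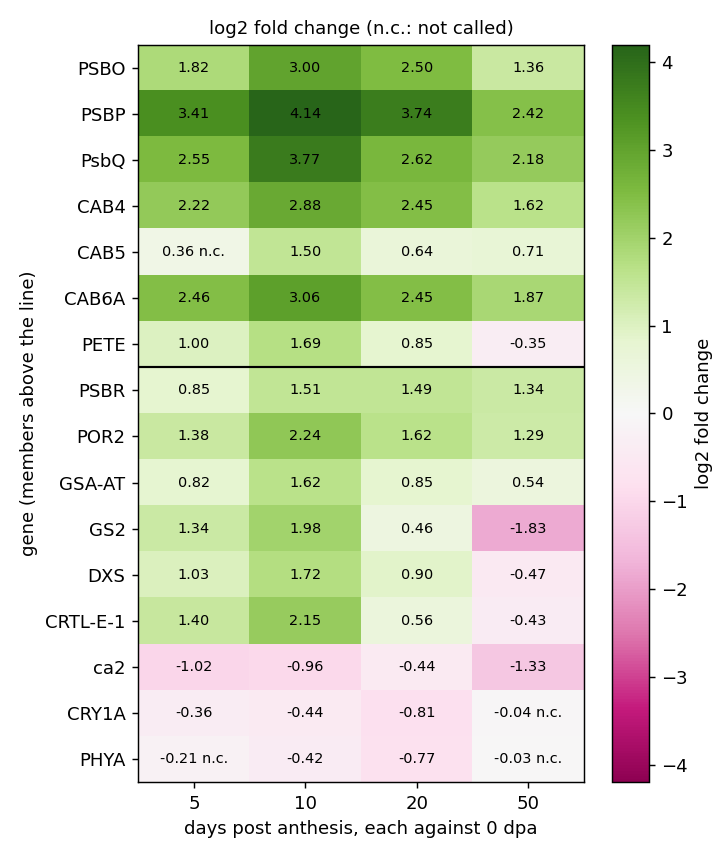
Log2 fold change against 0 dpa at 5, 10, 20 and 50 dpa (columns) for the 7 genes, above the line, and for some of the named genes of the wider pathway, below it. The plastid isoprenoid genes called higher from 20 to 50 dpa are not drawn. For ca2 and CRY1A only the probe set that varied most is drawn, and their other probe sets differed from it. Green is higher, pink is lower and n.c. marks a change that did not pass an adjusted p of 0.05. PSBR, POR2 and GSA-AT are higher at all 4 stages, and GS2, DXS and CRTL-E-1 are higher up to 20 dpa and lower at 50 dpa.

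The probe sets most alike in time course were found by Pearson correlation with the mean of the 7 genes over the 12 later arrays, which compares shape and not size. The 5 highest with a symbol outside the set were GABA-TP2, a GABA transaminase gene (r = 0.986), LOC544217 (r = 0.963), PMEU1, a pectin methylesterase gene (r = 0.961), LOC543899 (r = 0.96) and HPL, a hydroperoxide lyase gene (r = 0.952). Of 10031 other probe sets, 138 had a correlation of at least 0.9, 15 of them with a symbol. GABA-TP2 rose by 1.11 ± 0.113 at 10 dpa (adjusted p = 9.54e-05) and was at -1.28 ± 0.133 at 50 dpa (adjusted p = 0.00014), so that it shared the shape of the members and not their level against anthesis. HPL did not pass at 10 dpa (0.12, adjusted p = 0.339). It was called lower than at 0 dpa at 5, 20 and 50 dpa (-0.42, -0.35 and -0.63, adjusted p = 0.0178, 0.00877 and 0.000797 in limma). LOC543899 was at 1.76 at 10 dpa and at -1.46 at 50 dpa.

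Markers of other material with a symbol were few. Of 15 pollen and anther symbols 5 were measured. At 5 and 10 dpa 1 of these was lower, at 20 dpa none was called and at 50 dpa 1 was higher, with changes of -0.44 to 0.80 over the stages. Each of these calls, and both ends of that range, belonged to TDR6. LIN7, PRK1, PRK2 and PRK3 were not called against 0 dpa at any stage. Of 14 seed symbols 2 were measured, MAN1 and MAN2, both endo-beta-mannanase genes whose restriction to seed was not checked here. One of them, MAN2, was called higher at 10 and 20 dpa (1.91 and 3.81), and neither was called at 5 or 50 dpa. Of 10 carpel and fruit symbols 8 were measured, with 0, 1, 0 and 2 higher and 2, 2, 1 and 1 lower at 5, 10, 20 and 50 dpa. Over the same stages 15.7% to 20.6% of all probe sets were called higher and 16.4% to 20.2% lower. These 8 markers are named after their values were seen. Of them fsm1 was at -3.18, -3.04, -3.13 and -1.97 and was called lower at all 4 stages. TAGL1 was also called lower, at 5 dpa (-0.58) and 10 dpa (-0.37). Called higher were E8 at 10 dpa (0.34), and RIN (1.33) and 2A11 (0.64) at 50 dpa. TDR4, PG2 and EXP1 were not called against 0 dpa at any stage. As no level is left in the values, presence or absence of these markers could not be checked, and their part in the results was not tested.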

How the data were processed

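The members and the gene lists were chosen with earlier results of these data known. The deposited log2 values are the authors' RMA output, according to the design text of the series (background correction, quantile normalization and median polish, in GeneSpring GX 11.5). The submitters' processing notes also name RMA. The 24 columns hold 15 arrays, because the 3 arrays of 0 dpa were normalized once with each later stage. In each set of 6 columns 100% of the probe sets had a median within 1e-05 of 0. Positive values were read as higher expression, and this direction was not checked, since scanner values were not used here. Quantile normalization can compress or shift changes, and filters on dim probes could not be applied to centred values.

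Of 10209 probe sets, 108 named AFFX and 63 named RPTR (reporter genes) were left out as controls, and 10038 were tested. Each stage was compared with the 0 dpa columns of its own set in limma 3.58.1 (lmFit and eBayes, two-sided, R 4.3.3) with Benjamini-Hochberg adjustment over all 10038 and a threshold of 0.05. Later stages were compared in 1 fit of 12 arrays relative to the 0 dpa mean of their sets. Whether arrays of a stage came from separate plants is not stated beyond the word biological, and the p-values measure only the spread between them. Their number limits the precision. No scan or hybridization batch is named in the labels. The code was tested on simulated data.

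Gene symbols came from the platform annotation of 2007 (909 probe sets with 1 symbol). Named were all members and the 5 genes most alike in course. Of the photosynthesis, plastid and light signalling lists, the 2 genes with the smallest p at 10 dpa were named, where so many were measured. Some of the 2 with the largest fall from 20 to 50 dpa were named too. So were the plastid isoprenoid genes called higher over that step, named after their values were seen. GLDH, LOC numbers and the seed markers follow counts of 5 or fewer. The measured pollen and anther markers and all 8 carpel and fruit markers were named after their values were seen. For a gene with several probe sets the one that varied most over the stages stood for it. Alternatives were the unpaired t-test that the design text names ("the methods' t-test"), the replicate number as a block, median-centred columns, array weights, a fit of all 15 arrays, a fit of 6 columns, the 0 dpa column of the same number as base, a 2-fold minimum, and leaving out each array. Plots were drawn with matplotlib 3.10.9.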

Additional observations from a re-analysis of the deposited data

Results flagged for a closer look

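PETE had opposite directions at different stages. All 3 arrays of 5, 10 and 20 dpa lay above the 0 dpa arrays of their sets and all 3 arrays of 50 dpa below theirs, where the log2 fold change was -0.35. Of all probe sets, 22.4%, 21.2% and 22.8% lay wholly above at 5, 10 and 20 dpa, and 24.5% wholly below at 50 dpa. The call of PETE at 50 dpa no longer passed in 7 of 12 alternatives. The difference of 50 dpa from 10 dpa (-2.04, adjusted p = 2.48e-10 in limma) and from 20 dpa (-1.20, adjusted p = 1.07e-07) passed, and the difference from 5 dpa was not tested.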

How the results depend on the processing

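Of 784 values of single members under alternatives, 743 kept direction and side of the threshold, 39 kept direction but no longer passed, and 2 changed sign. The 2 are CAB5 from 20 to 50 dpa, at -0.18 without 20 dpa replicate 1 and -0.0776 without 50 dpa replicate 2 (-0.18 to 0.29 over single arrays left out). The count of members called lower at 50 dpa, which is 1 (PETE), was 0 in the methods' t-test, with the replicate block and with a 2-fold minimum, and 0 to 1 when single arrays were left out. A 2-fold minimum left 3 of 7 rises from 5 to 10 dpa, 1 of 7 falls from 10 to 20 dpa and 3 of 6 falls from 20 to 50 dpa, where 1.2%, 2.13% and 3.94% of all probe sets passed it in that direction. Whether the replicate numbers pair the arrays could not be settled. Deviations of same-numbered arrays from their stage means correlated at -0.017 to 0.102, with 1 of 12 pairs over 0.1. For different numbers the correlations were -0.11 to 0.0511, with 0 of 24 over 0.1. Correlations this small cannot exclude a pairing. With the replicate block PETE at 50 dpa had an adjusted p of 0.055, and no other member changed its call. The fall of PsbQ from 20 to 50 dpa had an adjusted p of 0.0512 relative to the 0 dpa column of the same number. Over all probe sets the t-test called 1040 higher and 1089 lower at 5 dpa (1572 and 1642 in limma) and 531 and 536 from 5 to 10 dpa (1038 and 1224). Relative to the same-numbered 0 dpa column the counts were 543 and 616 from 5 to 10 dpa, 1115 lower from 10 to 20 dpa (1751) and 1195 higher from 20 to 50 dpa (1947). The causes were not tested. With 3 arrays a stage and no signal level, dim probe sets could not be told from bright ones.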
